A study of Mus musculus with 10 samples.

Results

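The WNT module examined here consists of 42 genes, chosen by their symbols from the 25229 rows of the count table: 10 WNT ligands, the ligand acyltransferase Porcn, 9 Frizzled receptors, 4 co-receptors, 4 genes of beta-catenin and its destruction complex, 4 TCF/LEF transcription factors, 5 secreted inhibitors and 5 feedback targets. Their mRNA was measured by bulk RNA sequencing in cultured mouse adipose stem and precursor cells (ASPCs), sorted as CD45-CD31-Pdgfra+ cells from the stromovascular fraction of perigonadal white adipose tissue (gWAT) of WT mice and grown to confluence without passaging. Of the 10 libraries, 5 came from cells given the vehicle DMSO and 5 from cells given 100 nM of FICZ, a tryptophan photoproduct that binds the aryl hydrocarbon receptor (AHR), and lysates were taken after 6 hr. Each group carried the numbers 1 to 5, and same-numbered libraries deviated together across genes, so they were also compared as pairs. The labels give neither the age or sex of the mice nor whether the libraries came from separate animals or cultures, so p-values measure the spread between these libraries, which may be technical.

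WNT ligands are lipid-modified secreted proteins that bind a Frizzled receptor together with a co-receptor. In the canonical branch, binding of Frizzled and LRP5 or LRP6 holds back the destruction complex of Axin, APC and GSK3, beta-catenin accumulates, and TCF/LEF factors switch on targets that include several brakes on the same pathway. Canonical WNT signalling is known to hold adipocyte precursors in the undifferentiated state, and secreted inhibitors of the SFRP and DKK families work against it outside the cell.

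The promoters of Nkd2, Axin2 and Wnt9a are shown because these were the members with the smallest p-values among those higher with FICZ. Each sequence runs from 250 bases before to 50 bases after the RefSeq start (GRCm38.p6) in the direction of transcription, and covers chr13:73847582-73847881 on the minus strand for Nkd2, chr11:108920099-108920398 on the plus strand for Axin2 and chr11:59306680-59306979 on the plus strand for Wnt9a. Capitals mark GCGTG, the core of the element bound by AHR and its partner ARNT, or its reverse complement CACGC.
Nkd2: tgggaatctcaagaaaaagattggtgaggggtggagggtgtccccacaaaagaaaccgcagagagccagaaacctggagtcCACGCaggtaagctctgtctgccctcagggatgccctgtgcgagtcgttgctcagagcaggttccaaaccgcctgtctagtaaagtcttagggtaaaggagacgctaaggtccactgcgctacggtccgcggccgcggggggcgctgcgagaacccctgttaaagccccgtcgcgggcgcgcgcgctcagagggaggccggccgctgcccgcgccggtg
Axin2: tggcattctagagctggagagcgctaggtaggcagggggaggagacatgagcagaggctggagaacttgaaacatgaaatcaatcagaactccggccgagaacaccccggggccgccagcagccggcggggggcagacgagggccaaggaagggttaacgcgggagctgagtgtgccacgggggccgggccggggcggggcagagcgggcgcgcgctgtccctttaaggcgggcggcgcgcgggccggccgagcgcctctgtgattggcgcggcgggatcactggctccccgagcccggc
Wnt9a: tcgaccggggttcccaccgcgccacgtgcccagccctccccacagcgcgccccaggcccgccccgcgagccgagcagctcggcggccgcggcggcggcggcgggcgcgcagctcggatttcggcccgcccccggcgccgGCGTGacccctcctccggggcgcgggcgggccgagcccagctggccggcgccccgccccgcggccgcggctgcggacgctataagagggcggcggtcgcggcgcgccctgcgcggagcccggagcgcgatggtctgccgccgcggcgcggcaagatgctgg
The match began at -169 in Nkd2, on the opposite strand, and at -111 in Wnt9a, and the letters were not in the Axin2 window. Searched on both strands, GCGTG was found in 32.4% of 32851 RefSeq promoters of this length and in 20 of the 39 promoters (51.3%) of the 29 members that matched the promoter table. The TCF/LEF core CTTTGA was found in 16.0% of all promoters and in 6 of the 39 member promoters (15.4%), and in none of the 3 windows printed. These are matches of letters, and no binding was measured here.

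The libraries held between 38328611 and 50210111 counts, at which 3 counts, taken as the detection floor, correspond to 0.0603 to 0.0787 CPM (counts scaled to a common library size by TMM factors). Intervals and floors of this kind cover counting error only. Cyp1a1, the classical AHR target, had 35.2, 26.9, 42.9, 11.6 and 17.2 CPM in DMSO 1 to 5 and 317, 287, 355, 144 and 172 CPM in FICZ 1 to 5 (adjusted p = 0.0189, edgeR), and Ahrr, the AHR repressor, had an adjusted p of 0.00324 in the same test. ASPC markers were above the floor in every library for 10 of 10 genes, with a summed level of 5892 to 8844 CPM, whereas immune markers summed to 23.5 to 50.6 CPM and endothelial markers to 68.0 to 91.1 CPM. Mesothelial markers summed to 72.95 to 135.6 CPM, highest in DMSO 5, and mature adipocyte markers to 68.84 to 113.3 CPM. Transcripts of liver genes were also present, with 19 of the 20 listed genes in the table and all 19 above the floor in every library. Their summed level was 1660 to 11120 CPM in DMSO, highest in DMSO 5, and 1619 to 2471 CPM in FICZ, and the part of these transcripts in any WNT result was examined only by adding Alb to the fit, as given below for Nkd2, Rnf43 and Sfrp2.

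Without FICZ, ASPCs carried transcripts for every step of the pathway, and 39 of the 42 members were above the floor in all 10 libraries. The exceptions were Wnt10b, with 1 to 20 counts, Fzd9, with 2 to 18 counts, and Wif1, which encodes a secreted WNT-binding inhibitor, with 0 to 7 counts. Levels are compared between genes as CPM per kilobase of exon (GENCODE M21, GRCm38), a scale on which a single transcript made most of the signal in several roles. Using the longest transcript as the length moved 13 members by more than their SD, and the rank within the role differed for 0 members. The SDs given cover the spread between libraries and not the choice of length.

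Among the ligands, Wnt2, a canonical ligand, stood first in DMSO with 15.5 ± 1.51 CPM per kilobase (SD, n = 5 libraries), and made up 55.4% ± 3.49 of the summed ligand level. Wnt5a, the main ligand of the beta-catenin-independent branch, followed with 4.60 ± 0.305 CPM per kilobase, and its relative Wnt5b had 2.53 ± 0.428. Wnt2b and Wnt4, with 1.63 ± 0.359 and 1.61 ± 0.553 CPM per kilobase, differed by less than their spread. Wnt11, Wnt16, Wnt6 and Wnt9a lay between 0.357 and 0.716 CPM per kilobase. Another 9 ligands outside the module reached at most 12 counts in any library. Porcn, the acyltransferase that ligands need for secretion, had 0.666 ± 0.171 CPM per kilobase.

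The Frizzled receptors spanned a wider range. Fzd1 had 53.8 ± 4.58 CPM per kilobase in DMSO and Fzd2 had 24.4 ± 3.67, which were 55.0% ± 1.45 and 24.8% ± 2.21 of the Frizzled total. Fzd7 followed with 9.43 ± 0.775 and Fzd4 with 4.93 ± 0.373 CPM per kilobase, while Fzd5 and Fzd8 had 2.21 ± 0.264 and 1.89 ± 0.120. Fzd3, Fzd6 and Fzd9 were below 1 in the mean. Of the co-receptors, Lrp6, used by the canonical branch, and Ror1, a receptor tyrosine kinase used by Wnt5a, had 11.8 ± 0.997 and 11.7 ± 1.45 CPM per kilobase and could not be ordered on this length. With the longest transcript as the length, Lrp6 had 17.2 and Ror1 11.7. Both stood above Lrp5 (3.75 ± 0.275) and Ror2 (3.67 ± 0.434).

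Ctnnb1, which encodes beta-catenin, was the most abundant of the 42 members with 185 ± 13.9 CPM per kilobase. The scaffold Axin1 (14.4 ± 3.59), the kinase Gsk3b (10.9 ± 0.937) and Apc (6.99 ± 0.798) were lower. On the nuclear side, Tcf7l1, a TCF factor best known as a repressor, made up 71.1% ± 2.72 of the summed TCF/LEF level with 11.8 ± 0.954 CPM per kilobase, and Lef1 was the lowest with 0.236 ± 0.0767. This share depends on the length used. With the longest transcript as the length, Tcf7l1 had 15.2 and Tcf7l2 6.96 CPM per kilobase, instead of 11.8 and 2.95.

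Among the secreted inhibitors and ligands, Sfrp1 and Sfrp2 were the most abundant. The other inhibitors lay below the ligand Wnt2 (15.5 CPM per kilobase), and Wif1 was the lowest of the 42 members (0.0318). Sfrp1, a decoy that binds ligands, ranked second of all 42 members with 101 ± 21.4 CPM per kilobase, Sfrp2 had 41.0 ± 17.6 and Dkk3 had 10.5 ± 2.05, whereas Dkk2, an LRP-binding antagonist, had 0.886 ± 0.235. Dkk1, Sost and Sostdc1, which encode other LRP-binding inhibitors, had 0 counts in every library, as had the ligands Wnt3 and Wnt3a. A count of 0 over a library allows up to 3 counts, or at most 0.0787 CPM. Of the feedback targets, Nkd1 (8.09 ± 1.38 CPM per kilobase) and Nkd2 (6.69 ± 1.38), which bind Dishevelled, exceeded the scaffold Axin2 (2.56 ± 0.368) and the ubiquitin ligases Znrf3 (1.27 ± 0.0930) and Rnf43 (0.129 ± 0.0632), which remove Frizzled from the surface.

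**Figure D1:**
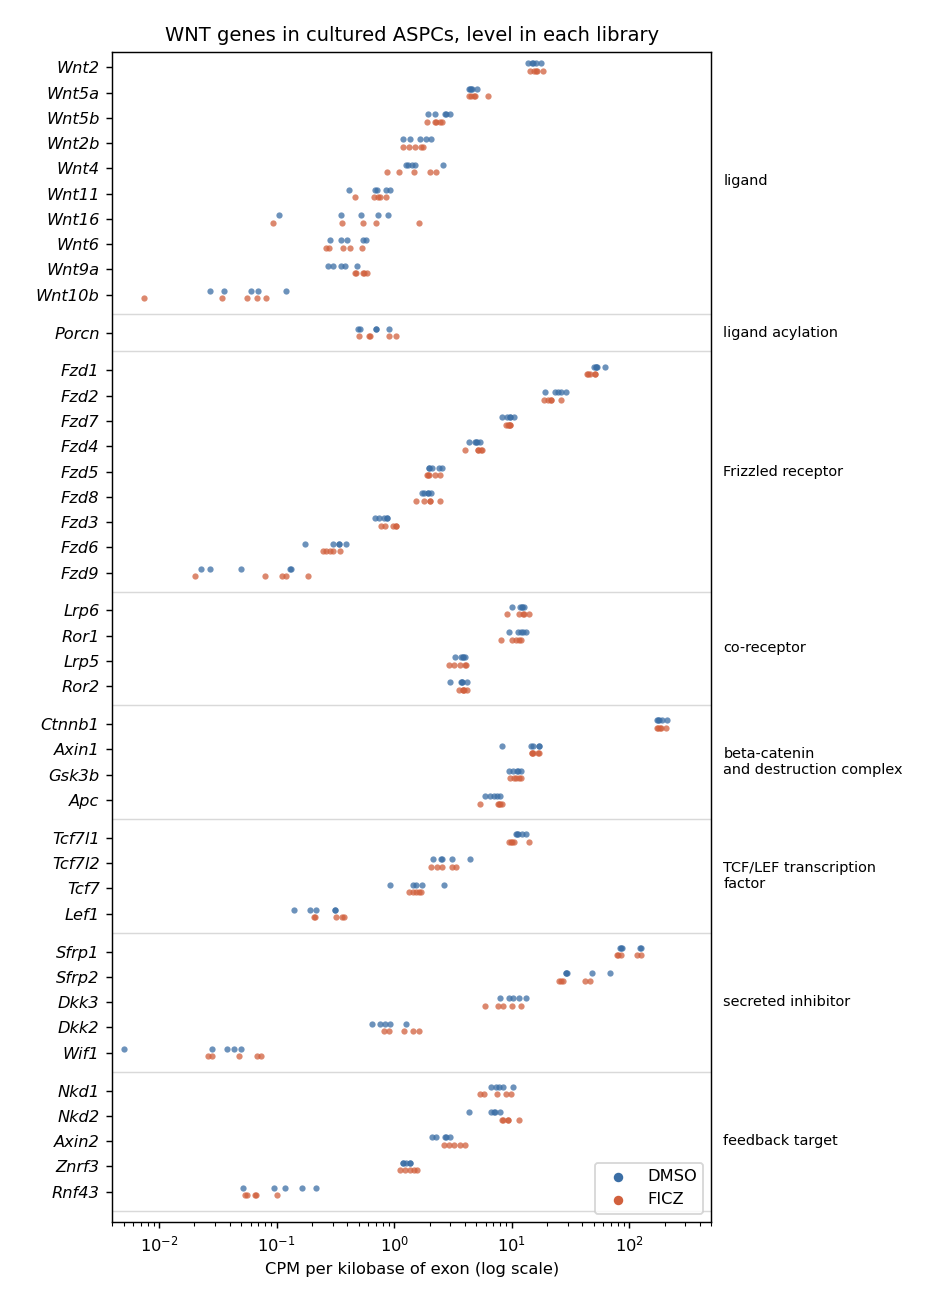
Level of the 42 WNT genes in each library as CPM per kilobase of exon on a log axis, grouped by role and ordered by the DMSO mean, with DMSO libraries in blue and FICZ libraries in orange. Ctnnb1 lies furthest right (185 CPM per kilobase in DMSO), Wif1 furthest left, and its 1 library with 0 counts is drawn at the left edge.

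The comparison of FICZ with DMSO bears on whether an AHR ligand alters the WNT module. The quasi-likelihood test of edgeR called 0 of the 40 members tested at an adjusted p at or under 0.05, against 3 of the 14251 genes tested (0.0211%), which were Cyp1a1, Ahrr and Tiparp. With the replicate number as a block, 0 members and 8 genes (0.0561%) were called, and Tiparp was not among them (edgeR adjusted p = 0.0509). Cyp1b1, a known AHR target, was called in neither fit (edgeR adjusted p = 0.147, and 0.0757 with the block). In the paper, which used DESeq2, Cyp1b1 is listed among the genes raised significantly by FICZ. Its log2 fold change was 0.62 (standard error 0.10), and every FICZ library was above every DMSO library. The threshold thus also missed an AHR target whose groups did not overlap. Wnt10b and Wif1 were too low to be tested. At an unadjusted p at or under 0.05 the test found 4 members (10.0% of 40) against 4.82% of all genes, and with the block 9 members (22.5%) against 4.65%. The smallest adjusted p among members was 0.999 in the former fit and 0.800 in the latter. The median log2 fold change of the members was -0.0030, with 20 higher and 20 lower in the mean, beside 0.011 over all genes, and the median size of the change was 0.12 beside 0.080. The standard error was at most 0.2 on the log2 scale for 28 of the 40 members, and a p that misses the threshold does not show that the level stayed the same.

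**Figure D2:**
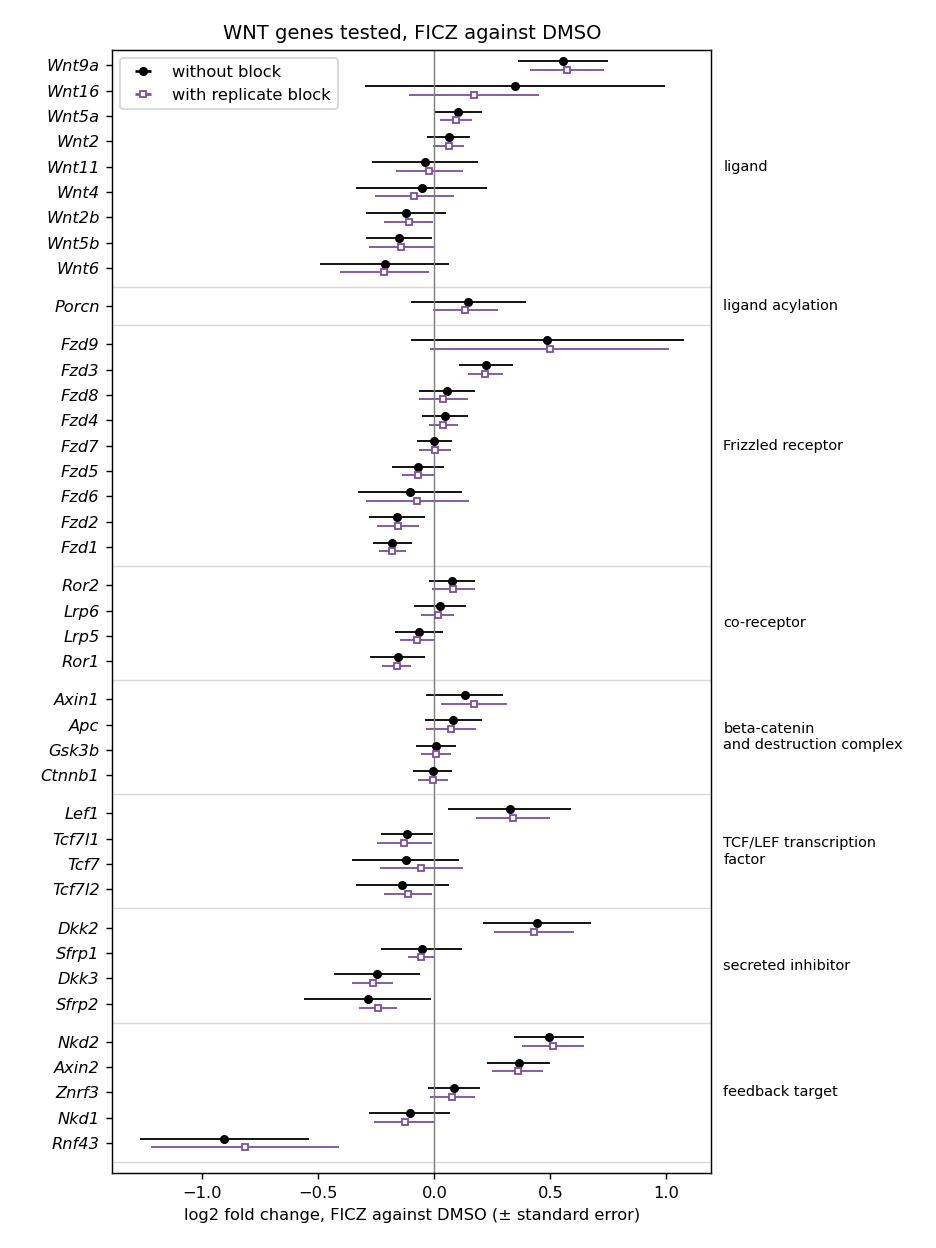
Log2 fold change of FICZ against DMSO for the 40 members tested, with bars of 1 standard error, from edgeR without a block (black circles) and with the replicate block (open purple squares). Values lie on both sides of 0, from -0.90 for Rnf43 to 0.55 for Wnt9a without the block.

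Of the 5 feedback targets, 3 (60.0%) had an unadjusted p at or under 0.05 without the block, against 4.82% of all genes tested. Nkd2 and Axin2 were higher and Rnf43 lower with FICZ. With the block there were 2 of 5 (40.0%) against 4.65%, and no feedback target was called after adjustment. Of the 16 other targets tested, from a wider list described below, 0 had an unadjusted p at or under 0.05 without the block. In the fit with the block 4 of these 16 did, 2 higher and 2 lower with FICZ. Nkd2 (chr13:73818534-73847631, GRCm38), a brake that binds Dishevelled, had 32.5, 34.3, 35.1, 38.4 and 21.0 CPM in DMSO 1 to 5 and 45.3, 40.5, 40.3, 55.9 and 45.1 CPM in FICZ 1 to 5. Every FICZ library was above every DMSO library, DMSO 5 was far below the other DMSO libraries and FICZ 4 was the highest. The means were 32.3 ± 6.65 and 45.4 ± 6.34 CPM (SD), and the log2 fold change was 0.49 (standard error 0.15, edgeR unadjusted p = 0.00735). The exact two-sided permutation test, which did not keep the pairs, gave p = 0.00794, the smallest that 252 arrangements allow. Nkd2 was the only member whose groups did not overlap (2.50% of 40), against 0.470% of all genes tested, and its log2 fold change was 0.37 without DMSO 5 and 0.32 with log2 CPM of Alb in the fit.

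Axin2 (chr11:108920349-108950783), a widely used reporter of canonical signalling, had 15.3, 15.0, 11.6, 16.4 and 12.4 CPM in DMSO and 17.8, 16.2, 14.7, 20.1 and 22.0 CPM in FICZ, in the order 1 to 5. It was higher with FICZ in all 5 pairs, most in pair 5, while the groups overlapped. Its log2 fold change was 0.36 (standard error 0.13, edgeR unadjusted p = 0.0197 and 0.0133 with the block, exact permutation p = 0.0556), and 0.28 to 0.43 when 1 library was left out.

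Rnf43 (chr11:87662722-87735539) lay the other way at a low level, with 1.08, 0.342, 0.779, 0.622 and 1.42 CPM in DMSO and 0.351, 0.658, 0.429, 0.369 and 0.439 CPM in FICZ. The groups overlapped and DMSO 1 and DMSO 5 were the highest, with 15 to 69 counts behind the 10 values. Its log2 fold change was -0.90 (standard error 0.37, edgeR unadjusted p = 0.0298, and 0.0822 with the block), -0.63 without DMSO 5, and -0.43 once Alb, a liver transcript, was added to the model as log2 CPM. Alb stood at 4780 CPM in DMSO 5 and between 682 and 1920 CPM in the other 9 libraries. Nkd1 had 38.3, 35.5, 33.2, 46.9 and 30.4 CPM in DMSO and 34.5, 24.5, 26.6, 44.8 and 40.8 CPM in FICZ, and it was lower with FICZ in 4 of 5 pairs (log2 fold change -0.11, standard error 0.17). Of the summed level of the feedback targets per kilobase, Nkd1 thus made up 43.1% ± 2.55 in DMSO and 34.3% ± 3.55 in FICZ, and Nkd2 35.5% ± 3.85 and 43.7% ± 2.45; this difference in shares was not tested. Znrf3 had 10.0 ± 0.734 and 10.7 ± 1.43 CPM.

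Among the ligands, Wnt9a (chr11:59306928-59333552) had 1.26, 1.00, 1.60, 1.17 and 0.903 CPM in DMSO and 1.94, 1.57, 1.82, 1.84 and 1.55 CPM in FICZ. It was higher with FICZ in all 5 pairs, and only DMSO 3 reached into the range of the FICZ libraries. The log2 fold change was 0.55 (standard error 0.19, edgeR unadjusted p = 0.0152, and 0.00864 with the block, exact permutation p = 0.0238), on 44 to 83 counts per library, and 0.47 to 0.69 when 1 library was left out.

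The abundant ligands differed less. Wnt2 (chr6:17988940-18030585) had 40.0, 33.5, 36.3, 34.2 and 30.9 CPM in DMSO and 41.9, 34.6, 36.9, 32.5 and 36.5 CPM in FICZ, ranges that overlapped almost entirely (log2 fold change 0.061, standard error 0.093). Wnt5a had 36.0 ± 2.38 and 38.6 ± 5.94 CPM (0.10, standard error 0.10). The other 6 ligands tested had log2 fold changes between -0.21 (Wnt6) and 0.35 (Wnt16), and each had an unadjusted p above 0.05. Porcn had 2.12, 1.55, 1.47, 2.12 and 2.73 CPM in DMSO and 1.87, 1.82, 1.51, 2.72 and 3.12 CPM in FICZ.

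Of the receptors, Fzd1 (chr5:4753839-4758035), the most abundant Frizzled, had 218, 218, 210, 225 and 259 CPM in DMSO and 185, 194, 186, 215 and 216 CPM in FICZ. It was lower with FICZ in all 5 pairs, and only FICZ 4 and 5 reached into the DMSO range. The log2 fold change was -0.18 (standard error 0.083), with an unadjusted edgeR p of 0.0505 without the block and 0.0165 with it. Fzd3, a receptor known from planar cell polarity, had 9.55, 10.5, 11.2, 8.75 and 11.2 CPM in DMSO and 9.91, 12.5, 13.3, 10.8 and 13.4 CPM in FICZ, and was higher in all 5 pairs (log2 fold change 0.22, standard error 0.12, edgeR unadjusted p = 0.0224 with the block). The other 7 Frizzled genes had log2 fold changes between -0.16 (Fzd2) and 0.49 (Fzd9, on 2 to 18 counts), and when 1 library was left out these ran from -0.24 to -0.095 for Fzd2 and from 0.18 to 0.83 for Fzd9.

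Ror1 (chr4:100095791-100444765) had 54.8, 64.6, 68.9, 71.9 and 76.8 CPM in DMSO and 46.7, 58.2, 66.1, 68.8 and 62.3 CPM in FICZ, and was lower with FICZ in all 5 pairs by -0.30 to -0.060 on the log2 scale although the groups overlapped (edgeR unadjusted p = 0.209, and 0.0358 with the block). Lrp6 (chr6:134446476-134566965) had 138, 160, 168, 173 and 166 CPM in DMSO and 124, 170, 159, 173 and 192 CPM in FICZ. Library 1 was the lowest of both groups for both receptors. Lrp5 and Ror2 had log2 fold changes of -0.066 and 0.075 (standard errors 0.10 and 0.098).

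For the 4 genes of beta-catenin and its destruction complex, the median size of the log2 fold change was 0.044. Ctnnb1 (chr9:120929216-120960507) had 911, 929, 902, 986 and 1080 CPM in DMSO and 970, 905, 944, 891 and 1070 CPM in FICZ, and its log2 fold change was -0.0062 (standard error 0.084), so that a difference of the size seen for Nkd2 lies well outside this error. Exons of Ulk4 and Mir7090 overlap 15.1% of its exon bases, and whether the counting used strand is not given in the sources used here. Axin1, Apc and Gsk3b had log2 fold changes of 0.13, 0.081 and 0.0073. Tcf7l1 (chr6:72626378-72789254) had 48.3, 44.8, 43.6, 42.5 and 51.6 CPM in DMSO and 37.4, 41.4, 38.8, 55.6 and 39.6 CPM in FICZ, lower with FICZ in 4 of 5 pairs and higher in pair 4. Tcf7 and Tcf7l2 had values of -0.12 and -0.14, and Lef1, at 2.07 ± 0.674 and 2.60 ± 0.706 CPM, had 0.33 (standard error 0.27).

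**Figure D3:**
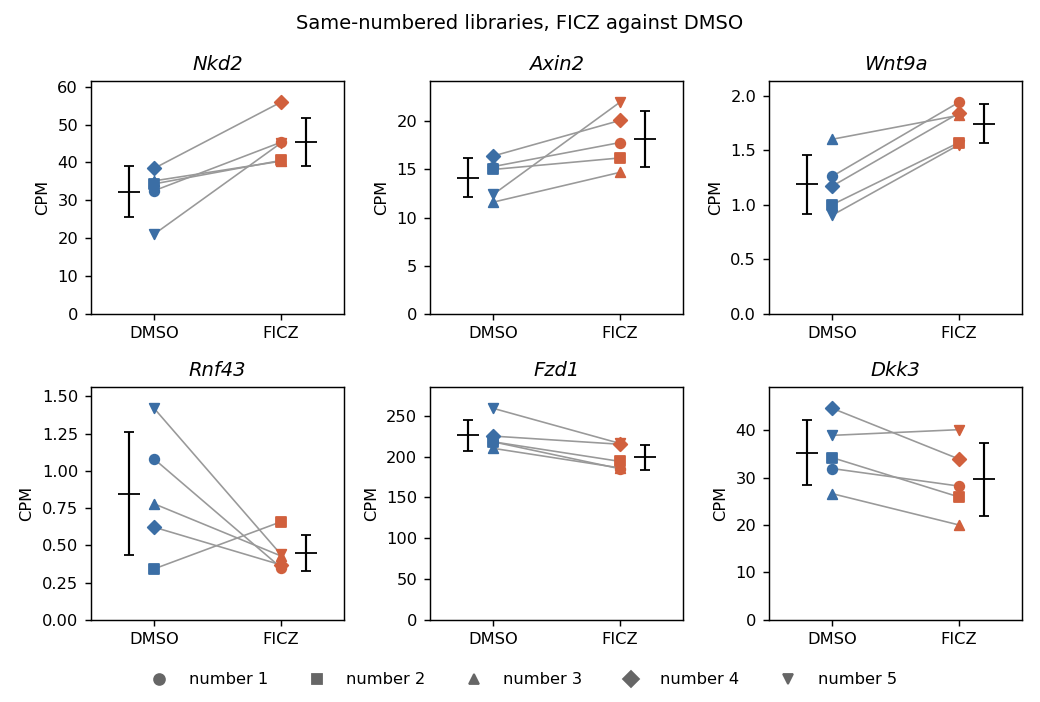
CPM of 6 WNT members in each library, with grey lines joining libraries of the same number (marker shape) and black bars giving the mean and SD of each group, each axis starting at 0. Nkd2, Axin2 and Wnt9a lie higher with FICZ in all 5 pairs, Fzd1 lower in all 5 pairs, and Rnf43 and Dkk3 lower in 4 of 5 pairs.

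The inhibitors Dkk2, Dkk3 and Sfrp2 had an unadjusted p at or under 0.05 only in the fit with the replicate block. These were 3 of the 4 inhibitors tested, against 4.65% of all genes, and none was called after adjustment. Dkk2 was higher with FICZ, and Dkk3 and Sfrp2 were lower. Of the 7 other inhibitors tested outside the module, 1 (14.3%) had such a p with the block. Dkk2 (chr3:132085292-132180304) had 3.41, 2.81, 3.07, 4.70 and 2.42 CPM in DMSO and 4.50, 3.01, 3.38, 6.06 and 5.34 CPM in FICZ, higher in all 5 pairs and most in pair 5 (log2 fold change 0.43 with the block, standard error 0.17, edgeR unadjusted p = 0.0405). Dkk3 (chr7:112116017-112159057), a divergent DKK protein, had 31.9, 34.2, 26.6, 44.6 and 38.9 CPM in DMSO and 28.2, 25.9, 20.0, 33.9 and 40.1 CPM in FICZ. It was lower with FICZ in 4 of 5 pairs (-0.27 with the block, standard error 0.087, edgeR unadjusted p = 0.0178). In all, 5 members were higher and 3 lower with FICZ in all 5 pairs (20.0% of 40), against 7.12% of all genes tested.

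The abundant secreted inhibitors Sfrp1 and Sfrp2 varied with the replicate number in both groups. Sfrp1 (chr8:23411502-23449632) had 367, 382, 371, 550 and 536 CPM in DMSO and 369, 352, 344, 548 and 510 CPM in FICZ. Sfrp2 (chr3:83766321-83774316) had 64.2, 62.8, 62.5, 104 and 148 CPM in DMSO and 54.6, 58.7, 57.0, 91.1 and 100 CPM in FICZ. For both genes, every library numbered 4 or 5 was above every library numbered 1 to 3, whatever the treatment. Both differed between replicate numbers in edgeR's quasi-likelihood F test (adjusted p = 0.0370 for Sfrp1 and 0.0275 for Sfrp2), which called 2 of 40 members (5.00%) against 1.80% of all genes. Both calls were lost when both libraries of number 1, 2, 3 or 4 were left out (adjusted p = 0.0854, 0.118, 0.121 and 0.143 for Sfrp1 and 0.0826, 0.0867, 0.0911 and 0.121 for Sfrp2, edgeR), and kept without number 5 (0.0245 and 0.0147). The loss was general. Over all genes, the test called 257 with all libraries, 0, 0, 13 and 0 without number 1, 2, 3 or 4, and 433 without number 5.

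Within pairs, Sfrp2 was lower with FICZ in all 5 (log2 fold change -0.24 with the block, standard error 0.081, edgeR unadjusted p = 0.0189) and Sfrp1 in 4 of 5 (-0.058, standard error 0.057). Without the block, the value of Sfrp2 was -0.29 (standard error 0.27), -0.020 without DMSO 5 and 0.068 with Alb in the fit. For Sfrp2, exons of Gm26771 on the opposite strand overlap 16.1% of the exon bases. The members with the next smallest p for the replicate number were Wnt16 and Dkk3 (adjusted p = 0.0593 and 0.0867, edgeR). Wnt16 (chr6:22288227-22298522), a minor ligand, had 1.55, 2.29, 0.458, 3.89 and 3.20 CPM in DMSO and 2.39, 1.57, 0.404, 3.04 and 7.09 CPM in FICZ, lowest for number 3 in both groups. The summed level of the ASPC markers was 7601 to 8844 CPM in the 4 libraries numbered 4 or 5 and 5892 to 6770 CPM in the other 6, and its part in the levels of Sfrp1 and Sfrp2 was not tested. In bulk libraries, a change in the share of a cell type and in the RNA per cell cannot be told apart.

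**Figure D4:**
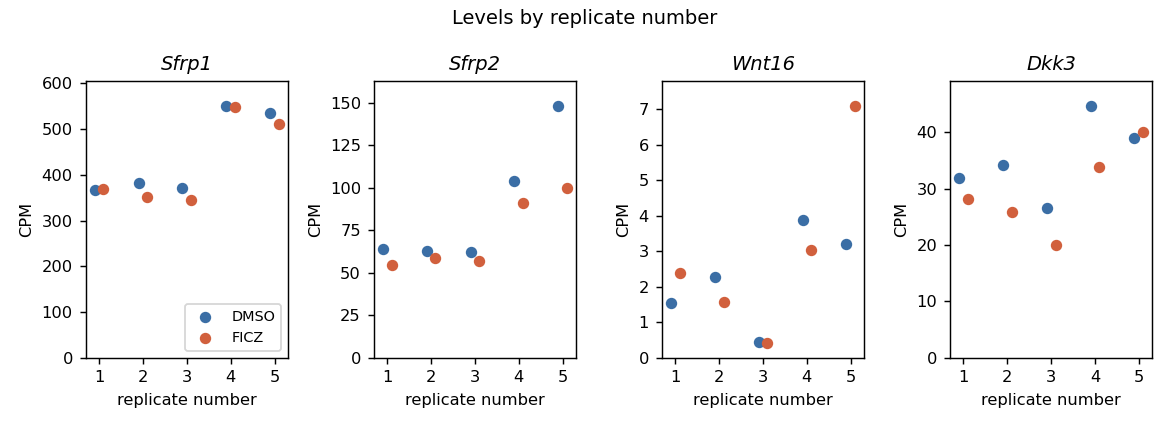
CPM of Sfrp1, Sfrp2, Wnt16 and Dkk3 by replicate number, with DMSO in blue and FICZ in orange and each axis starting at 0. Sfrp1 lies at 344 to 382 CPM for numbers 1 to 3 and at 510 to 550 CPM for numbers 4 and 5 in both groups.

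A wider list of 131 other genes of the pathway, of which 127 were in the table and 97 were tested, gave the same count: 0 were called by edgeR with or without the block, and 2 had an unadjusted p at or under 0.05 without the block (2.06%) and 11 with it (11.3%). Their median log2 fold change was -0.013, beside the 0.011 over all genes. Notum, the deacylase that inactivates WNT ligands, had 2.36, 1.31, 1.65, 2.51 and 4.13 CPM in DMSO and 1.05, 0.912, 1.21, 1.50 and 2.15 CPM in FICZ, lower in all 5 pairs although the groups overlapped (log2 fold change -0.81, standard error 0.33, edgeR unadjusted p = 0.0317, adjusted p = 0.604 with the block). Nfatc1, a calcium-dependent transcription factor, had a log2 fold change of 0.31 (edgeR unadjusted p = 0.0356), followed among the higher genes by Caprin2 (0.21) and the corepressor Tle1 (0.16), and among the lower genes after Notum came Tle5 (-0.17) and the Notch ligand Jag1 (-0.19), all with an unadjusted p above 0.05 without the block. With it, the unadjusted edgeR p was 0.0321 for Caprin2, 0.0497 for Tle1, 0.0342 for Tle5 and 0.0490 for Jag1, and the smallest of the wider list was that of the target Ccn5 (log2 fold change 0.41, unadjusted p = 0.000867, adjusted p = 0.475, higher in all 5 pairs).

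The most abundant genes of the wider roles in DMSO, per kilobase, were Igfbp4 (109 CPM per kilobase), an IGF-binding protein also known to inhibit WNT receptors, Rac1 (100.4), Ctbp1 (48.0), the receptor Ryk (39.9), Tmed2 (39.4), Ccnd2 (37.5), Gsk3a (35.6), the R-spondin receptor Lgr4 (6.94) and Wnt9b (0.0272). For these genes the longest transcript was not tried as the length, so the order may depend on it. Some first places also lay within the spread. Gsk3a (35.6 ± 1.46, SD) was close to Csnk1d (33.9 ± 1.74), and Ctbp1 (48.0 ± 5.72) to Ctnnd1 (45.1 ± 3.08). The inhibitors Igfbp4 and Apcdd1 and the targets Myc and Ccn5 differed between replicate numbers (adjusted p = 0.0305, 0.0368, 0.0456 and 0.0434, edgeR), 4 of 97 genes (4.12%) against the 1.80% of all genes. Igfbp4 and Apcdd1 were, like Sfrp1, higher in every library numbered 4 or 5 than in every library numbered 1 to 3, with 534 to 597 against 320 to 448 CPM for Igfbp4.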

How the data were processed

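Bulk RNA was sequenced from 5 DMSO and 5 FICZ libraries of cultured ASPCs. The authors aligned reads to mm10 with STAR 2.7.7 and deposited raw counts per gene symbol, without normalisation. The counting program, annotation and strand setting are not given in the sources used here. Values were checked to be whole numbers. Totals ranged from 38328611 to 50210111 counts, and libraries of a group differed by more than sampling noise (chi-square per degree of freedom at least 16.4). Groups came from the sample labels.

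Genes were tested with edgeR 4.0.16 (R 4.3.3): TMM normalisation, filter by expression (14251 of 25229 rows), robust quasi-likelihood test and Benjamini-Hochberg adjustment, at a threshold of 0.05. Same-numbered libraries correlated in their deviations from the group means across genes (0.154 to 0.317, mean 0.252), above 0.1 for each of the 5 pairs, so the replicate number was also used as a block and tested by itself. Libraries of different numbers were not compared in this way, so the pairing itself was not tested. Alternatives were DESeq2 1.42.0, limma-voom (limma 3.58.1), other scaling, no filter on low counts and leaving out each library. The paper names DESeq2 for its own comparison. Exact permutation tests used log2 CPM with a prior count of 2 and rearranged all libraries freely, without regard to the replicate number. Exon lengths, positions and overlaps came from GENCODE M21. Tests were tried on simulated data. The WNT members, the wider list and the tests were chosen with earlier results of these data known. All members were reported by role, with values per library for the most abundant of each role, those with an unadjusted p at or under 0.05 with or without the block, and the 4 with the smallest p for the replicate number. Nkd1 falls under this rule as the most abundant feedback target, but its values per library were added after they were seen. Cyp1b1 was given outside this rule. From the wider list came the 3 genes with the smallest p in each direction and the most abundant of each role; Apcdd1, Myc and Ccn5 were added as they passed the test of the replicate number, and the blocked value of Ccn5 after it was seen.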

Additional observations from a re-analysis of the deposited data

Results flagged for a closer look

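Of the 80 groups of 5 libraries examined (40 members, DMSO and FICZ), 6 held a library whose gap to its nearest neighbour, divided by the range of the group, was above Dixon's critical value of 0.71 for 5 samples. About 4 are to be had by chance at 1 in 20. In DMSO 5, Nkd2 was the lowest value (21.0 CPM, next 32.5, ratio 0.725) and so was Axin1 (31.7 CPM, next 55.6, ratio 0.78). In FICZ 1, Apc was the lowest (86.5 CPM, next 123, ratio 0.821), as was the receptor Fzd4 (27.1 CPM, next 34.4, ratio 0.712). Wnt4 was highest in DMSO 4 (10.9 CPM, next 6.3, ratio 0.752), and Tcf7l1 was highest in FICZ 4 (55.6 CPM, next 41.4, ratio 0.742).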

How the results depend on the processing

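No member was called for FICZ against DMSO under any alternative run. Over all genes, 3 were called by edgeR, 8 with the replicate block, 16 by DESeq2, 26 by DESeq2 with the replicate block and 1 to 4 without 1 library. At an unadjusted p at or under 0.05 there were 4 members, 9 with the replicate block, 7 by DESeq2 with the block and 3 to 5 without 1 library. The block lost the call of Tiparp (edgeR adjusted p = 0.0509) and changed no call of a member. For the replicate number, edgeR called 257 genes and 2 members, the DESeq2 likelihood ratio test 1492 and 6, and leaving out both libraries of a number 0 to 433 and 0 to 5, from fewer samples. Of 720 values of log2 fold change, 50 changed sign. Fzd7 had -0.0067 with DESeq2's size factors, -0.015 with library size only, -0.0081 with no filter, -0.0044 by DESeq2 and -0.0010 with its block, and Gsk3b had -0.010 and -0.0013 with library size only and no filter. With Alb added to the model as log2 CPM, an alternative chosen after seeing the data, the signs changed for Fzd6 (0.078), Fzd7 (-0.037), Ror2 (-0.028), Ctnnb1 (0.058), Axin1 (-0.069), Apc (-0.030), Tcf7l2 (0.11), Sfrp1 (0.055) and Sfrp2 (0.068). Without 1 library they changed for Wnt4 (-0.24 to 0.18), Wnt11 (-0.18 to 0.067), Wnt16 (-0.31 to 0.63), Porcn (-0.021 to 0.29), Fzd4 (-0.014 to 0.12), Fzd7 (-0.044 to 0.037), Fzd8 (-0.036 to 0.12), Lrp6 (-0.051 to 0.11), Ctnnb1 (-0.063 to 0.038), Axin1 (-0.014 to 0.20), Gsk3b (-0.035 to 0.050), Tcf7 (-0.27 to 0.090), Tcf7l2 (-0.25 to 0.058) and Sfrp1 (-0.16 to 0.038). The cause was not tested. Wnt10b, Wif1, Fzd9 and Rnf43 had the fewest counts of the members.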

Other observations

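Nkd2 lies 363486 bases from Ahrr on chromosome 13, a neighbourhood looked at after the values of Nkd2 were seen. Between them lie 7 protein-coding genes. Exoc3, an exocyst subunit next to Ahrr, stood at 87.0 ± 9.59 CPM under DMSO against 116 ± 8.25 CPM under FICZ (SD over 5 libraries), without overlap between the groups, at a log2 difference of 0.41 (standard error 0.092, edgeR adjusted p = 0.937). Trip13, Brd9, Tppp and Cep72 had log2 fold changes of 0.078, 0.12, 0.38 and -0.053 (standard errors 0.099, 0.10, 0.26 and 0.16), and Zdhhc11 and Slc9a3 were too low to be tested. Ahrr itself had a log2 fold change of 1.66 (standard error 0.16, edgeR adjusted p = 0.00324).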
